A study of Mus musculus with 20 samples.

Results

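Prostate cancer cells growing in bone can make proteins that call in monocytes and macrophages, and 10 genes for such signals were followed here: the growth factors Csf1 and Il34, the chemokines Ccl2, Ccl5, Cxcl1, Cxcl12, Cxcl16 and Cx3cl1, the cytokine Mif, and Cd47, the surface protein that tells a macrophage not to engulf a cell. They are given by name, with no threshold on their values, and all 10 were found by symbol among the 17104 genes listed in the deposited tables. The question was which of these signals the tumor cells make, and whether enzalutamide resistance or macrophage depletion changed them.

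The tumor cells were MycCaP-Bo, a single line of mouse prostate cancer cells in which Myc overexpression drives growth, selected in FVB/N males for spread to bone and marked with the fluorescent protein iRFP. Mice of 4 to 6 weeks received the cells by injection into the heart at day -7. Naive mice received vehicle. Resist mice received enzalutamide, an antiandrogen drug used against prostate cancer, by mouth every day at 30 mg/kg for 18 days. Resist-Mac mice received the same course and, over the last 4 days, clodronate liposomes at 1 mg per mouse, which kill phagocytic cells. Naive-Mac mice received vehicle and clodronate liposomes over 4 days. From each bone lesion, cells that carried iRFP and lacked the leukocyte protein CD45 were sorted, and each library held the RNA of cells pooled from 3 mice, with 5 libraries per group.

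CSF-1 and IL-34 are the 2 ligands of the CSF-1 receptor, through which macrophages survive and divide. Chemokines are small secreted proteins that attract leukocytes along a gradient: CCL2 and CCL5 act on monocytes and lymphocytes, CXCL1 on neutrophils, CXCL12 on most leukocytes, and CXCL16 and CX3CL1 are made as membrane proteins that proteases release. MIF holds macrophages in place and binds CD74, and CD47 binds SIRPα on the macrophage and inhibits engulfment.

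Expression was given as FPKM, the number of fragments per kilobase of transcript scaled to the total of the library, so levels of different genes can be set side by side per length. The steps between the lowest values gave an approximate depth of 11600000 to 16100000 fragments per library. Naive and Resist libraries share 1 table and 1 batch in the labels, while Resist-Mac and Naive-Mac libraries each have a table and a batch of their own, so in every comparison but Resist vs. Naive, the batch and the treatment cannot be told apart. The epithelial gene Krt8 averaged 107 to 317 FPKM per group, while Krt18 and Cdh1 averaged at most 0.106 FPKM in any group. Of 12 macrophage markers, 7 to 10 averaged under 1 FPKM in each group. Lyz2, which neutrophils also express, led them with 21.1 to 304 FPKM. The macrophage markers summed to 16.9 to 101 FPKM in naive and 4.03 to 54.6 FPKM in Resist libraries. In Resist-Mac libraries the sums were 36.0 to 814 FPKM, and in Naive-Mac libraries 4.75 to 525 FPKM. Among those averaging 1 FPKM or more over both groups, all 4 were higher in Resist-Mac than in Resist tumors. In Naive-Mac against naive tumors, 1 of 2 was higher. The 10 neutrophil markers summed to 61.7 to 1274 FPKM in the naive and Resist libraries, to 406 to 8791 FPKM in Resist-Mac and to 58.7 to 6166 FPKM in Naive-Mac, led by S100a8 and S100a9. The erythroid markers summed to 53.9 to 106 FPKM in naive, 106 to 199 FPKM in Resist, 130 to 310 FPKM in Resist-Mac and 213 to 950 FPKM in Naive-Mac libraries. Hba-a1, a hemoglobin gene of red cells, itself rose over naive tumors in the Resist group (log2 change 0.78, adjusted p = 0.0245 by limma) and in the Naive-Mac group (2.13, 9.21e-05). Their part in the results below was not tested, nor can fewer cells of a type and less RNA per cell be told apart in sorted bulk samples.

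The tumor cells made 4 of the signals at a high level in every library, while 4 others averaged under 1 FPKM in naive and Resist tumors. Mif was the highest, with a mean of 1204 ± 96.4 FPKM in naive tumors (SD, n = 5), above 99.6% of the genes listed. Cxcl1 followed with 89.1 ± 45.9 FPKM, Cd47 with 37.3 ± 1.45 FPKM and Il34 with 19.9 ± 2.83 FPKM. In naive tumors the libraries of neighbors in this order did not overlap. Cx3cl1, at 2.11 ± 0.766 FPKM, and Csf1, at 0.594 ± 0.278 FPKM, stood next, and their naive libraries did not overlap either. Below Csf1 the order was not resolved: the naive libraries of Csf1, Cxcl12, Ccl5, Cxcl16 and Ccl2 overlapped from each to the next, and Ccl2 was listed at 0 in all 5.

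The first 4 places were the same in all 4 groups. The ranges of Cxcl1 and Cd47 overlapped in Naive-Mac tumors, where the lowest Cxcl1 library held 28.9 FPKM, and those of Cx3cl1 and Csf1 overlapped in Resist and Resist-Mac tumors. The spread between libraries differed among the genes. In naive tumors the SD was 3.89% of the mean for Cd47 and 8% for Mif, and 51.5% for Cxcl1 and 46.8% for Csf1.

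**Figure D1:**
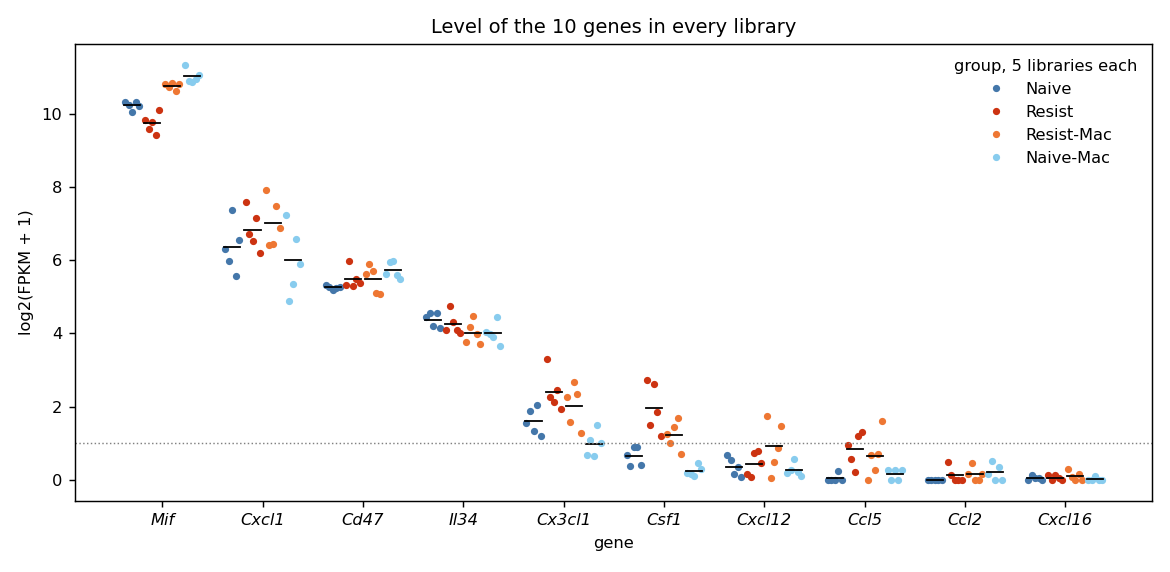
log2(FPKM + 1) of the 10 genes in each of the 20 libraries, with a point for each library, colors for the 4 groups, a bar at each group mean and a dotted line at 1 FPKM. Mif, Cxcl1, Cd47 and Il34 are well above the line in every library, Cx3cl1 and Csf1 lie around it, and the other 4 genes are mostly under it.

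Promoter windows of 250 bases before and 50 bases after the gene start were at hand from RefSeq (GRCm38.p6) for 6 of the 10 genes: Csf1, Cxcl1, Cxcl12, Cx3cl1, Mif and Cd47. They are shown for the 2 genes with a match to the NF-κB motif (GGG, 2 bases of any kind, TTTCC) on either strand, and for Cx3cl1, which changed together with Csf1 in resistant tumors and had no match. The capitals mark the matches. The Csf1 window, on the minus strand at chr3:107760420-107760719, holds 1 match that starts 154 bases before the gene start. The Cxcl1 window, on the plus strand at chr5:90890995-90891294, holds 2, starting 89 and 71 bases before it. The Cx3cl1 window is on the plus strand at chr8:94771930-94772229.
Csf1: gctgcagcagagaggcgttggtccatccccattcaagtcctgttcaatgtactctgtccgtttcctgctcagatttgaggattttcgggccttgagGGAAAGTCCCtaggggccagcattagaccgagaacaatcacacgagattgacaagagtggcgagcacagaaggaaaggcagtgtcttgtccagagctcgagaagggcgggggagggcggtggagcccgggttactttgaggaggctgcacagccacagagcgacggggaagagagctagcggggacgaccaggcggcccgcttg
Cxcl1: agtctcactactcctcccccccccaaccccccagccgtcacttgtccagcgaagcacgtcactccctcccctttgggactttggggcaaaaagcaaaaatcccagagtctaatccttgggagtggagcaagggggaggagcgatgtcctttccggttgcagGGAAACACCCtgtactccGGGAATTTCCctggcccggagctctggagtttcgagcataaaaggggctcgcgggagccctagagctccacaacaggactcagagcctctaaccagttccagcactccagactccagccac
Cx3cl1: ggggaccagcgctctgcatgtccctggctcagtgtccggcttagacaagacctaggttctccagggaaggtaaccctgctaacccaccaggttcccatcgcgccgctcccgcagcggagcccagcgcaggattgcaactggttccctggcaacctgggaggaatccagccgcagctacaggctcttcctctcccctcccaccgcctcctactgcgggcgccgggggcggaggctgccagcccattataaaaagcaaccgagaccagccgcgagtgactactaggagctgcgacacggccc
The NF-κB motif occurs in 1.63% of the 32851 promoter windows of the same length. The AP-1 motif TGANTCA, found in 7.81% of windows, was in none of the 6 genes' windows. These matches describe the letters of the windows alone, since no binding was measured.

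In enzalutamide-resistant tumors, Csf1 rose 5.55-fold and Cx3cl1 2.21-fold over naive tumors in mean FPKM, while Il34, the other ligand of the CSF-1 receptor, did not pass the test. Of the 10 genes, 6 were high enough for the test, and 2 of these 6 were called, which here means an adjusted p under 0.05 together with a change of more than 1.5-fold. The share called among all 10119 genes was 6.35%, with 5.25% higher and 1.11% lower. Mif was lower in Resist tumors with an adjusted p under 0.05, but by less than 1.5-fold.

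Csf1 in naive libraries was 0.6, 0.3, 0.86, 0.88 and 0.33 FPKM, and in Resist libraries 5.61, 1.83, 5.16, 2.6 and 1.29 FPKM. Every Resist library was above every naive library, which held for 8.45% of all genes tested, while 4.34% were lower without overlap. The rise was 1.32 on the log2(FPKM + 1) scale, a scale that understates changes of low genes (SE 0.28, limma adjusted p = 0.00679). It was called under every other scaling, filter and pseudocount with limma, with adjusted p from 0.00105 to 0.0206 over these and over leaving out each library. By a noise-distribution probability after NOISeq, which sets the change and difference of a gene against those between replicates, it reached 0.684, under the threshold of 0.8. Stromal cells also make Csf1, and the 10 osteoblast and stromal markers summed to 10.2 to 15.9 FPKM in naive and 11.3 to 32.7 FPKM in Resist libraries, with Bglap and Sp7 at 0 in every naive library. In the order of the Csf1 values above, Col1a1, a collagen gene of bone stroma, was 3.4, 0.17, 7.78, 4.86 and 13.5 FPKM in the Resist libraries. The part of stromal cells in the Csf1 values was not tested.

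Il34 stayed the more abundant of the 2 ligand transcripts. It was 20.7, 22.7, 17.3, 22.4 and 16.6 FPKM in naive libraries and 16.25, 25.7, 18.9, 16.2 and 15.1 FPKM in Resist libraries. The groups overlapped, and the log2 change was -0.12 (95% interval -0.42 to 0.18, adjusted p = 0.565). The median ratio of Il34 to Csf1 within a library was 34.5 in naive tumors (range 20.1 to 75.6) and 6.23 in Resist tumors (range 2.90 to 14.0), so the ratios of the groups did not overlap.

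Cx3cl1, whose membrane-bound protein also tethers monocytes, was 1.95, 2.68, 1.51, 3.1 and 1.3 FPKM in naive libraries. In Resist libraries it was 8.82, 3.78, 3.4, 4.46 and 2.84 FPKM. Only the last of these fell within the naive range. The log2 change was 0.81 (SE 0.24, limma adjusted p = 0.0347). This call was close to the threshold and was lost without Naive replicate 1, 3 or 5 or Resist replicate 4 (adjusted p 0.0681 to 0.0780), with quantile normalization (0.0959), without the filter on low values (0.0768) and with all groups in one fit (0.0523). Without Resist replicate 1, its highest library, the log2 change was 0.60.

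Cxcl1 varied more within the groups than between them. Naive libraries held 78.4, 61.7, 165, 46.8 and 93.7 FPKM, and Resist libraries 191, 104, 91.5, 142 and 72.3 FPKM. Its log2 change was 0.48 with a 95% interval from -0.21 to 1.16 (adjusted p = 0.307). Its closest companion over these 10 libraries was Cxcl2, the neighboring neutrophil chemokine, with r = 0.94, which is a description over libraries that share depth and batch.

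Ccl5, which attracts monocytes and T cells, was the exception among the 4 lowest genes, higher in Resist than in naive tumors. It was listed at 0 in 4 naive libraries and at 0.18 FPKM in the other, and at 0.94, 0.49, 0.17, 1.3 and 1.5 FPKM in Resist libraries. By the size of the lowest step these values stand for about 1 fragment in all naive libraries together and for about 6, 3, 1, 7 and 8 fragments in the Resist libraries. The exact two-sided permutation test of the difference in mean FPKM gave p = 0.0159, and limma without the filter on low values gave an adjusted p of 0.0240. Of 18 such permutation tests of genes under the filter, 3 gave p under 0.05, and the smallest p that 5 against 5 libraries allow is 0.00794. Lymphocytes also express Ccl5, and the 6 lymphocyte markers summed to 0.07 to 1.16 FPKM in naive libraries and to 0.29, 0.12, 1.94, 1.68 and 0.25 FPKM in the Resist libraries, in the order of the Ccl5 values. Their part was not tested.

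Ccl2, Cxcl12 and Cxcl16 gave no difference that passed the test. Ccl2, the main attractant of inflammatory monocytes through CCR2, was at 0 in all naive libraries and 3 of 5 Resist libraries, and the other 2 held 0.41 and 0.11 FPKM, about 4 and 1 fragments (exact permutation p = 0.444). Cxcl12, the stromal chemokine that holds blood-forming cells in marrow, averaged 0.306 ± 0.230 FPKM in naive and 0.390 ± 0.302 FPKM in Resist tumors (n = 5 each, exact permutation p = 0.635). Cxcl16 did not exceed 0.11 FPKM in any of these 10 libraries (exact permutation p = 0.905).

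Mif was 1288, 1216, 1055, 1287 and 1175 FPKM in naive libraries and 911, 765, 881, 678 and 1105 FPKM in Resist libraries. Resist replicate 5 alone lay within the naive range. The log2 change was -0.49 (SE 0.12, limma adjusted p = 0.0129), smaller than the 1.5-fold threshold. An adjusted p under 0.05 in the same direction, whatever the fold, was reached by 6.4% of all genes.

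Cd47 was 39.3, 37.4, 35.3, 36.9 and 37.8 FPKM in naive libraries, the narrowest range of the 10 genes relative to its mean. In Resist libraries it was 38.9, 62.6, 38.4, 44 and 40.5 FPKM. Resist replicate 2 stood apart, and the other 4 lay at or just above the naive values. Its log2 change was 0.24 (95% interval -0.02 to 0.49, adjusted p = 0.169), and 0.11 without Resist replicate 2.

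**Figure D2:**
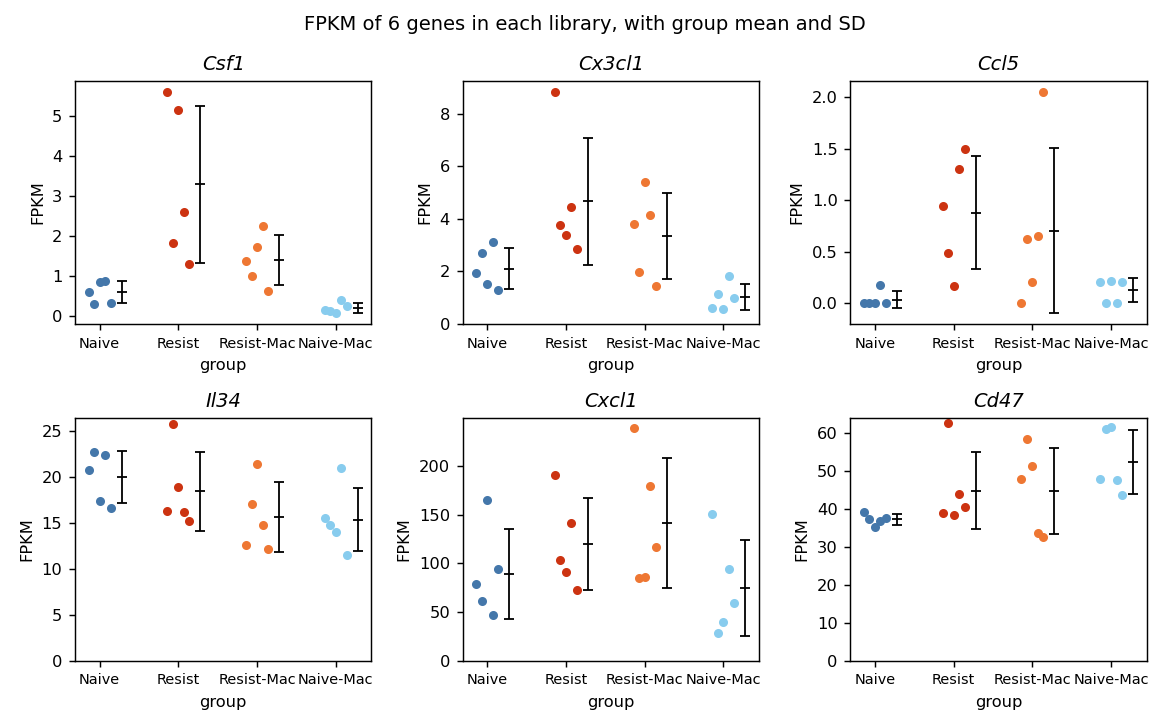
FPKM of Csf1, Cx3cl1, Ccl5, Il34, Cxcl1 and Cd47 in each library of the 4 groups, with a point for each library and a bar for the group mean with its SD (n = 5). Csf1 is the only gene of the 6 whose Resist libraries, 1.29 to 5.61 FPKM, all lie above the naive ones, 0.3 to 0.88 FPKM.

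After macrophage depletion in resistant tumors, only Mif was called among the 6 genes tested, against 21.7% of all 10049 genes, 12% higher and 9.71% lower. Csf1 was lower in Resist-Mac than in Resist tumors without passing the test. Resist-Mac libraries held 1.38, 1, 1.74, 2.25 and 0.63 FPKM of Csf1, with a mean of 1.40 ± 0.631 FPKM against 3.30 ± 1.97 FPKM in Resist tumors. The ranges overlapped between 1.29 and 2.25 FPKM. On the log2 scale the difference was -0.76 (95% interval -1.41 to -0.10, limma adjusted p = 0.0587). With all groups in one fit the adjusted p was 0.0156, and it was 0.0475, 0.0196 and 0.0406 without Resist replicate 2, Resist replicate 5 or Resist-Mac replicate 4. Once length and GC content of the transcripts were corrected for, it was 0.149.

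Mif rose from 868 ± 162 FPKM in Resist to 1737 ± 111 FPKM in Resist-Mac tumors, where its libraries held 1800, 1693, 1823, 1562 and 1807 FPKM. No library of one group overlapped the other, and 17.4% of all genes were higher without overlap. On the log2 scale Mif rose by 1.02 (limma adjusted p = 9.56e-05). Across these 2 tables, changes ran with transcript length over all genes (Spearman rho -0.642), short transcripts being higher in Resist-Mac. The Mif transcript has 600 bases, and the 192 tested genes of 500 to 800 bases had a median log2 change of 0.75, with 22.9% of them above Mif. With the length and GC correction the change of Mif was 0.16 (adjusted p = 0.461), and with quantile normalization 0.26 (0.116).

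Cx3cl1 was 3.8, 1.97, 5.4, 4.14 and 1.44 FPKM in Resist-Mac libraries, and its log2 change from Resist was -0.38 (adjusted p = 0.318). The groups overlapped. Il34 changed by -0.23 (adjusted p = 0.293), Cxcl1 by 0.19 (0.65) and Cd47 by -0.01 (0.956), the last with a 95% interval from -0.41 to 0.38. The directions of Cxcl1 and Cd47 turned under the length and GC correction, to -0.22 and 0.17.

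Of the low genes, Cxcl12 reached 2.35 and 1.76 FPKM in Resist-Mac replicates 1 and 5 and was at 0.03, 0.41 and 0.84 FPKM in the other 3 (exact permutation p = 0.183 against Resist). These 2 libraries also had the highest sums of neutrophil markers in the group, at 8791 and 4894 FPKM, and of macrophage markers, at 814 and 440 FPKM. In replicates 1 to 5 the osteoblast and stromal markers summed to 11.4, 5.48, 8.34, 11.8 and 13.2 FPKM. Col1a1 was 2.89, 0.21, 0.68, 1.92 and 3.35 FPKM there, and the endothelial markers summed to 2.73, 0.24, 0.6, 1.79 and 1.82 FPKM. Whether Cxcl12 is related to any of these markers was not tested. Ccl5 was 0, 0.62, 0.21, 0.65 and 2.05 FPKM, overlapping with Resist (exact permutation p = 0.698). Ccl2 reached at most 0.39 FPKM, about 3 fragments.

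Depletion in naive tumors went with lower Cx3cl1 and higher Mif among the 5 genes tested, in a comparison where 59.7% of all 9837 genes were called, 37.5% lower and 22.1% higher. The median log2 change over all genes was -0.23. Cx3cl1 was 0.61, 1.14, 0.58, 1.82 and 1 FPKM in Naive-Mac libraries against 2.11 ± 0.766 FPKM in naive ones, with overlapping ranges. Its log2 change of -0.61 (limma adjusted p = 0.0119) was -0.08 with the length and GC correction (0.715) and 0.03 with quantile normalization (0.878). With median-ratio scaling it was -0.45 (0.0479), under the fold threshold. Without Naive replicate 2 or 4 or Naive-Mac replicate 1 or 3, its fold fell under 1.5.

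Mif was 2585, 1884, 1870, 1978 and 2116 FPKM in Naive-Mac libraries, all above the naive ones, as for 25.3% of all genes. Its log2 change was 0.79 (limma adjusted p = 4.90e-06). Genes of 500 to 800 bases had a median of 1.36 here, and 78.5% of them changed more than Mif. With the length and GC correction its change was -0.29 (adjusted p = 0.00771), so the direction turned.

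**Figure D3:**
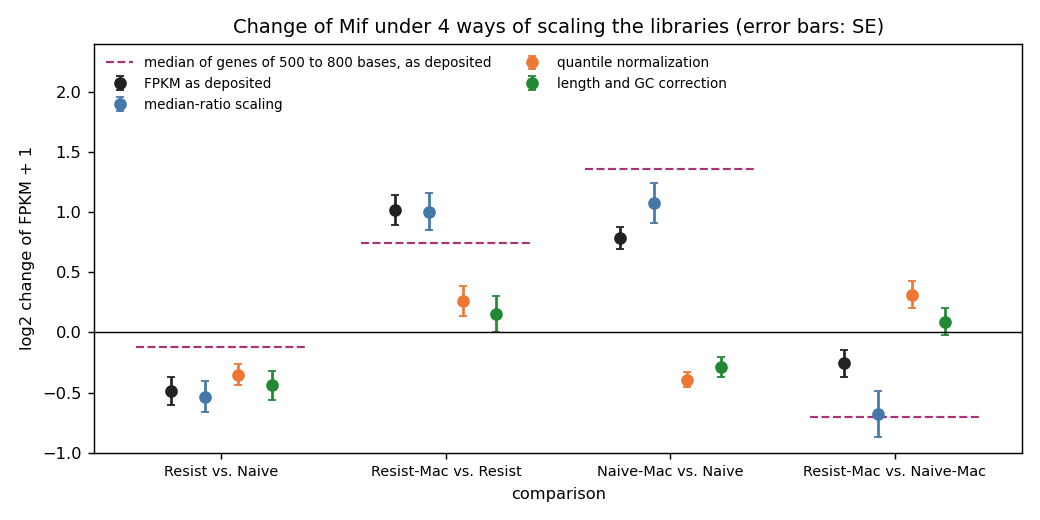
log2 change of Mif in the 4 comparisons, from FPKM as deposited and after 3 other scalings, with bars for the SE, and the median change of genes of 500 to 800 bases as a dashed line. In Resist vs. Naive all 4 scalings put Mif between -0.53 and -0.35, whereas in Naive-Mac vs. Naive they run from -0.39 to 1.08 and cross 0.

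Cd47 was 48, 61.2, 61.6, 47.8 and 43.6 FPKM in Naive-Mac libraries, each above the highest naive library of 39.3 FPKM. The log2 change was 0.47 (SE 0.10, limma adjusted p = 0.001), under the 1.5-fold threshold. An adjusted p under 0.05 whatever the fold was reached by 31.3% of all genes in the higher and 46.8% in the lower direction. The change of Cd47 was 0.36 with quantile normalization, 0.75 with median-ratio scaling and 1.26 with the length and GC correction, all with an adjusted p under 0.05, and the last 2 passed the fold threshold. The Cd47 transcript has 5250 bases. Il34 was 15.5, 14.8, 13.95, 21 and 11.5 FPKM and changed by -0.37 (limma adjusted p = 0.0319), also under the fold threshold and not far from the median of all genes. Il34 was -0.68 with the length and GC correction (0.00045) and passed the fold threshold, whereas with median-ratio scaling it was -0.10 (0.568).

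Csf1, under the filter in this comparison, was 0.15, 0.13, 0.08, 0.39 and 0.24 FPKM in Naive-Mac libraries against 0.3 to 0.88 FPKM in naive ones. The difference in mean FPKM was -0.396 (exact permutation p = 0.0317). Leaving out 1 library at a time gave p from 0.0159, the smallest that 4 against 5 libraries allow, to 0.0635. Over all genes, longer transcripts ran lower in Naive-Mac (Spearman rho -0.709), and the Csf1 transcript has 4176 bases. These permutation tests used FPKM without a length correction. Cxcl1 was 151, 28.9, 39.8, 94 and 59.1 FPKM, overlapping with naive tumors (log2 change -0.37, limma adjusted p = 0.429). Its change was -1.09 with the length and GC correction (0.0353), which would be called. Ccl2 was above 0 in 3 of 5 Naive-Mac libraries and in none of the naive ones (exact permutation p = 0.167).

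The 2 depletion effects were compared with each other in 1 fit of all 4 groups. None of the 6 genes tested by limma passed at an adjusted p under 0.05, 1 had an unadjusted p under 0.05, and of all 9876 genes 51.9% passed and 40.7% were called. The nearest was Cd47, whose change with depletion was 0.48 lower in resistant than in naive tumors on the log2 scale (limma adjusted p = 0.0686, unadjusted p = 0.0376). That difference was -0.83 with median-ratio scaling (adjusted p = 0.00675) and -1.07 with the length and GC correction (0.00108). The effect of depletion on Csf1 differed by -0.36 between resistant and naive tumors (adjusted p = 0.409), and by -1.04 with the length and GC correction (0.0208). That of Mif differed by 0.23 (0.236), by 0.66 with quantile normalization (0.00174) and by 0.58 with the length and GC correction (0.00904), the last just under the fold threshold.

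Under depletion, resistant tumors held more Csf1, Cx3cl1 and Cxcl1 than naive tumors. The Csf1 ranges were 0.63 to 2.25 FPKM in Resist-Mac and 0.08 to 0.39 FPKM in Naive-Mac tumors and did not overlap. The difference was 7.07-fold (exact permutation p = 0.00794, the smallest possible), and 36% of the genes tested across the table were higher without overlap. Over all genes, longer transcripts ran higher in Resist-Mac (Spearman rho 0.607), and the Csf1 transcript has 4176 bases. The permutation test used FPKM without a length correction. Cx3cl1 differed by 1.04 on the log2 scale (limma adjusted p = 0.00376) and Cxcl1 by 1.03 (0.0405), in a comparison where 46.2% of 9760 genes were called, 37.2% higher and 9% lower, and where the median of all genes was 0.34. Cx3cl1 was 0.28 with quantile normalization (adjusted p = 0.370) and 0.41 with the length and GC correction (0.204), and Cxcl1 was 0.61 with median-ratio scaling (0.256). Cxcl1 also lost its call without Resist-Mac replicate 1, 4 or 5 or Naive-Mac replicate 2, 3 or 5 (adjusted p 0.0551 to 0.102). Its ranges, 84.9 to 239 FPKM and 28.9 to 151 FPKM, overlapped.

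Mif was lower by 0.26 in Resist-Mac than in Naive-Mac tumors without passing the test (adjusted p = 0.0645), and Cd47 (-0.25, 0.224) and Il34 (0.02, 0.938) did not pass either. Scaling moved the first 2: with median-ratio scaling Mif was -0.68 (0.0077) and Cd47 -0.66 (0.0109), both called, and with the length and GC correction Cd47 was -0.91 (0.0019). The comparisons Resist vs. Naive and Resist-Mac vs. Naive-Mac share no library. Csf1 was higher in the resistant group without overlap in both, 0.594 against 3.30 FPKM in the first and 0.198 against 1.40 FPKM in the second. The second difference was not corrected for transcript length. The osteoblast and stromal markers summed to 5.48 to 13.2 FPKM in Resist-Mac and 1.86 to 3.15 FPKM in Naive-Mac libraries. Their part in this Csf1 difference was not tested.

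**Figure D4:**
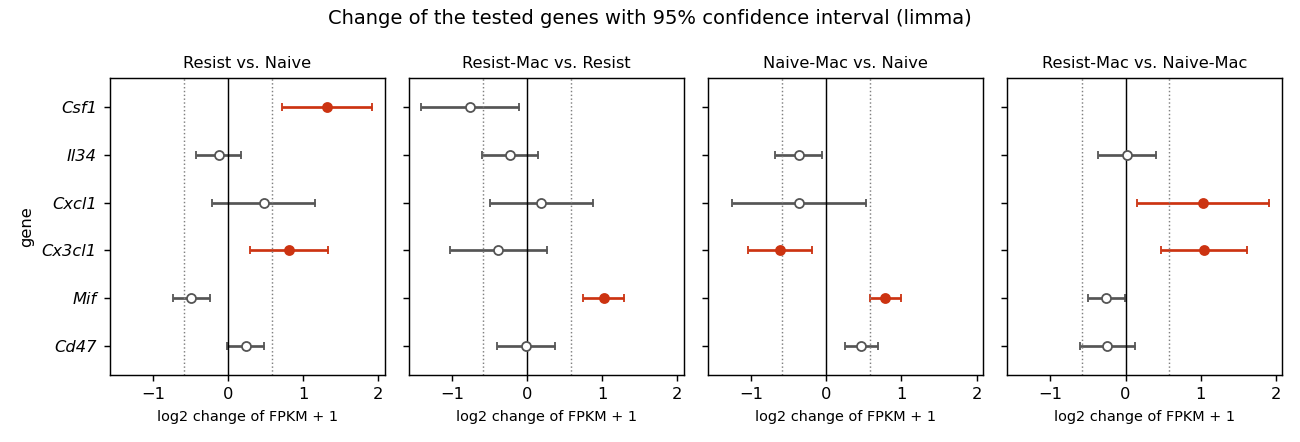
log2 change of FPKM + 1 of the 6 genes in the 4 comparisons, with the 95% confidence interval from limma, dotted lines at a fold change of 1.5 and filled red points for called genes. In Resist vs. Naive, Csf1 (1.32) and Cx3cl1 (0.81) are called, and Csf1 is not drawn where its mean is under 1 FPKM.

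Of 16 receptors of these signals, 15 were in the tables. The sorted cells had few of the receptor transcripts. Sdc1, a syndecan that binds IL-34, was the exception, with 23.8 to 89.95 FPKM over all libraries. It rose from 30.8 to 53.3 FPKM in Resist tumors (log2 change 0.77, limma adjusted p = 0.00393), and it was higher in Resist-Mac than in Naive-Mac tumors (0.69, 0.00433), where it was not called with the length and GC correction (0.16, 0.380). Csf1r reached at most 2.1 FPKM, Ccr1 2.86, Ccr2 1.73, Sirpa 5.86, Cxcr2 5.78, Cxcr4 9.21, Ackr3 5.83 and Cd74 15.3 FPKM, each of these maxima in a library of a macrophage-depleted group. Ccr3, Cxcr6, Ackr1 and Cx3cr1 stayed at or under 0.25 FPKM, Cxcr1 was listed at 0 in the 10 libraries that list it, and Ptprz1 has no value. Cxcr4 (1.42, adjusted p = 0.0253) and Cxcr2 (1.19, 0.0241) rose in Resist-Mac vs. Resist, a comparison in which 7 of the 10 neutrophil markers rose as well. Both are expressed by neutrophils, and with the length and GC correction no receptor was called there.

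Of 10 enzymes and partners that act on these proteins, 7 were tested in Resist vs. Naive and none was called. These include Adam10 and Adam17, the proteases that shed CX3CL1 and CXCL16. In Naive-Mac vs. Naive, 2 of 6 rose and 3 fell, where 22.1% of all genes were called higher and 37.5% lower, with Adam17 from 35.9 to 10.5 FPKM (-1.71, limma adjusted p = 4.88e-07), Adam10 from 68.8 to 32.4 FPKM (-1.13, 0.00013) and Cops5, a MIF-binding subunit of the signalosome, from 54.5 to 107 FPKM (0.95, 3.61e-08). With the length and GC correction 0 rose and 2 fell, Adam17 among them (-1.08, 2.46e-06). In Resist-Mac vs. Resist, Ddt, the closest relative of Mif, rose from 37.5 to 65.6 FPKM (0.78, 0.000158) and Cops5 from 44.7 to 71.7 FPKM (0.66, 0.000115), and neither was called after that correction. In Resist-Mac vs. Naive-Mac, 4 of 7 were called, all higher, as were 37.2% of all genes, led by Thbs1, a ligand of CD47, at 5.44 against 0.158 FPKM (1.94, 0.00725), Adam17 (1.08, 0.000185) and Qpctl (0.80, 0.000915). After the correction 0 were.

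Among 29 other chemokine genes, 5 were tested in Resist vs. Naive, and 1 rose and 1 fell. Cxcl17, an epithelial attractant of monocytes, was 11.2, 4.87, 7.42, 12 and 7.24 FPKM in naive and 65.4, 61.7, 32.7, 59.2 and 10.4 FPKM in Resist libraries, with 4 of 5 above every naive library (log2 change 2.11, limma adjusted p = 0.00598). Ccl28, an epithelial chemokine for lymphocytes, fell from 14.9 to 5.78 FPKM with no overlap (-1.36, 0.00633). Both were called with the length and GC correction as well, Cxcl17 at 2.18 (0.00517) and Ccl28 at -1.40 (0.00581). In the other comparisons, Ccl6 rose in Resist-Mac vs. Resist (1.72, 0.0170) and in Naive-Mac vs. Naive (1.26, 0.0322), Ccl17 rose in the latter (1.06, 0.0152), and Cxcl17 was higher in Resist-Mac than in Naive-Mac tumors (1.36, 0.000878). Ccl28 rose by 1.06 in Resist-Mac vs. Resist (0.0238) and fell by 0.71 in Naive-Mac vs. Naive (0.000497). Of these calls, only that of Cxcl17 in Resist-Mac vs. Naive-Mac was made with the length and GC correction too (1.97, 0.000397). In both depletion comparisons no chemokine of the list was called higher and 1 was called lower with it, Cxcl5 in Resist-Mac vs. Resist (-0.79, 0.0264) and Cxcl17 in Naive-Mac vs. Naive (-0.66, 0.0424).

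Of 22 other growth factors and attractants of myeloid cells, 15 were tested in Resist vs. Naive, with 1 called higher and 2 lower, a median change of 0.00 and a median of 0.03 over all genes. Il33, an alarmin cytokine, rose from 0.726 to 5.45 FPKM (log2 change 1.86, limma adjusted p = 0.000936). Il1b, an inflammatory cytokine that neutrophils also make, fell from 12.7 to 4.03 FPKM (-1.60, 0.00761), while the 9 neutrophil markers tested there were all lower with a median of -0.91 and none called. Vegfa, the endothelial growth factor that also attracts monocytes, fell from 47.7 to 30.2 FPKM (-0.67, 0.0154). In the depletion comparisons Hmgb1, a nuclear protein that acts as a danger signal outside the cell, was the most changed of the tested genes in this list, rising from 45.9 to 172 FPKM in Resist-Mac vs. Resist (1.88, 1.04e-06) and from 52.0 to 206 FPKM in Naive-Mac vs. Naive (1.97, 1.15e-09).

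Lgals3 rose by 0.63 in Resist-Mac vs. Resist (limma adjusted p = 0.0128) and Kitl fell by 0.62 (0.00186). With the length and GC correction neither was called there, and Hmgb1 was the 1 gene of the list that was (1.62, 2.6e-06). In Naive-Mac vs. Naive, 3 of 14 rose and 3 fell, among them Vegfa (-1.91, 3.95e-07) and Kitl (-1.18, 2.79e-07). With the correction 1 rose, Hmgb1, and 4 fell, Vegfa among them (-1.49, 1.11e-06) but not Kitl (-0.38, under the fold threshold). In Resist-Mac vs. Naive-Mac 6 of 14 were called, all higher, beside 37.2% of all genes called higher, led by C3, a complement protein (6.21 against 1.04 FPKM, 0.0364), Il33 (1.22, 0.00236) and Kitl (1.07, 2.02e-05). With the correction 3 were higher, Il33 among them (1.31, 0.00377).

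Of 13 other signals that promote or prevent engulfment, 6 were tested in Resist vs. Naive and 1 was called. Lrp1, the receptor for calreticulin, rose from 1.03 to 4.31 FPKM (1.19, limma adjusted p = 0.0385), with its lowest Resist library at 0.81 FPKM, and it was not called with the length and GC correction. Cd24a, a do-not-eat signal that acts beside CD47, rose by 1.29 in Resist-Mac vs. Resist (0.0199) and by 0.92 in Naive-Mac vs. Naive (0.0329). Neutrophils also express it, and after the correction it was not called higher in either. Lrp1 was also higher in Resist-Mac than in Naive-Mac tumors, at 2.06 against 0.146 FPKM (1.39, 2.02e-05), and with the correction its direction turned (-0.42, 0.0841). The correction also added calls. B2m, another gene of the list, was then lower in Naive-Mac vs. Naive (-1.71, 1.44e-08). In Resist-Mac vs. Naive-Mac, B2m (1.17, 0.00108) and Cd24a (0.92, 0.0481) were then higher.

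Of 16 genes of the NF-κB pathway, which acts upstream of Cxcl1, Ccl2 and Ccl5, 13 were tested in Resist vs. Naive, and only Nfkbie, an inhibitor, was called (0.67, limma adjusted p = 0.00327), and with the length and GC correction none was. The median of the list was 0.05. In Naive-Mac vs. Naive, 9 of 12 fell, led by Tnfaip3 (-1.91, 6.99e-06), Nfkbiz (-1.86, 9.93e-07) and Nfkb1 (-1.79, 3.99e-08), with a list median of -1.16 beside -0.23 for all genes. Of all genes tested there, 37.5% were called lower. With the length and GC correction 5 fell and 1 rose. In Resist-Mac vs. Resist, Rel (-1.08, 0.000336), Nfkbie (-0.68, 0.0294) and Relb (-0.66, 0.0122) fell, and 3 of the 14 were also called lower with the correction. Without it, 9.71% of all genes were called lower there. In Resist-Mac vs. Naive-Mac, 7 of 13 were higher, beside 37.2% of all genes, led by Tnfaip3 (2.22, 2.01e-05), Nfkb1 (1.58, 9.42e-06) and Nfkbiz (1.55, 0.000117). With the correction 3 were higher and 1 was lower, Ikbkg (-0.76, 6.74e-05).

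Over the 10 naive and Resist libraries, the genes closest to each signal were named by the correlation of log2(FPKM + 1), as a description that takes in both the group difference and the spread of libraries sharing one batch. Csf1 ran closest with Fbxo2 (r = 0.98) and Cald1 (0.97), Cx3cl1 with Cfap410 (0.95) and Lgmn (0.95), Mif with Rpl8 and Coq5 (0.99 for both), Cd47 with Krt79 (0.94) and Sfr1 (0.92), Il34 with Mttp (0.92) and Pafah1b3 (0.91), and Cxcl1, after Cxcl2, with Stau1 (0.94).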

How the data were processed

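The authors sorted tumor cells, pooled cells of 3 mice per library, and sequenced poly(A) RNA in pairs of 150-base reads. They deposited 3 tables by Entrez gene. Naive and Resist libraries were deposited together as log2 values of FPKM + 1, which were turned back to FPKM, and the other 2 deposited tables hold FPKM. The submitters' processing notes name Bowtie2 and mm9. The quantifier and annotation are not given in the sources used here. FPKM scaled each library to its own total, so a few abundant genes can shift the rest, and no counts were used. Genes with a BGI_novel name, which made up 8.45% of FPKM in the naive and Resist table, were left out.

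Symbols, coordinates and promoters came from RefSeq (GRCm38.p6), and transcript lengths and GC content from GENCODE. Depth was estimated from the lowest step of FPKM in genes with 1 transcript of 700 to 1500 bases (9 to 49 genes per library) and is approximate. No gene of the 10 had a pseudogene of at least 90% identity over 80% of its transcript among 13607 searched with minimap2 2.31-r1302. Mif had close matches over a smaller part of its transcript, led by Gm10169 (99.1% identity over 64.0%) and Gm16379 (98.3% over 64.0%). Their effect on the Mif values was not tested.

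For each comparison, limma 3.58.1 (R 4.3.3) was run with a variance trend on log2(FPKM + 1) of its 2 groups, for genes that averaged 1 FPKM or more there, with Benjamini-Hochberg adjustment over all genes. Genes under that mean had exact two-sided permutation tests (scipy 1.17.1) with unadjusted p. All 10 genes are named. Of the lists of related genes, those called were named, at most 6 per list in Resist vs. Naive and 3 in each other comparison, with the range of each receptor but 1, which is not reported here. Of each list of cell markers the 2 highest were to be named, and erythroid Hba-a1 and Alas2, lymphocyte Cd79a and Cd79b, platelet Pf4 and Ppbp, osteoclast Mmp9 and Acp5, endothelial Pecam1 and Cdh5, stromal Runx2 and Col1a1 and macrophage Lyz2 and Itgam come under that rule. The members and lists were chosen with earlier results of these data known. Alternatives were a pseudocount of 0.1, no filter, median-ratio scaling, quantile normalization, a spline of 4 degrees of freedom on length and GC content per library, a fold change over 2, all groups in one fit, a replicate block, a noise-distribution probability over 0.8 after NOISeq, which the study used, and leaving out each library. The labels do not say whether the pools of a group came from separate experiments, so p-values measure only the spread between these pools. Tables were handled in Python 3.11.15 (pandas 2.3.3, numpy 2.4.6) and plotted with matplotlib 3.10.9.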

Additional observations from a re-analysis of the deposited data

Results flagged for a closer look

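Among the 40 sets of 5 libraries formed by the 10 genes and 4 groups, 5 held a highest library that stood far from the other 4 by Dixon's test at the 95% level. The chance rate of 1 in 20 assumes normal values and does not apply to sets mostly at 0, so no number by chance is given. Cx3cl1 reached 8.82 FPKM in Resist replicate 1, and the other Resist libraries held 2.84 to 4.46 FPKM. Cd47 reached 62.58 FPKM in Resist replicate 2, and the others held 38.4 to 44 FPKM. Ccl2 reached 0.41 FPKM in Resist replicate 1, Ccl5 was at 0.18 FPKM in Naive replicate 4, about 1 fragment, and Cxcl16 was at 0.08 FPKM in Naive-Mac replicate 3, while the other 4 Naive-Mac libraries were at 0. A set with only 1 library above 0, as for this Ccl5 and this Cxcl16 set, is flagged whatever the value. Ccl2 in naive tumors, at 0 in all 5 libraries, cannot be flagged.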

How the results depend on the processing

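Of the 2 genes called in Resist vs. Naive, 1 was left with quantile normalization, with all groups in one fit and with a fold change over 2, and 0 by the noise-distribution probability. Cx3cl1 was lost in each of these. Of all genes, 219 were called there at a fold change over 2 and 360 by the noise-distribution probability, against 643. In Resist-Mac vs. Resist, 0 of the 10 genes were called with quantile normalization or the length and GC correction, and 2 with all groups in one fit, the added gene being Csf1. The count of all genes, 2181, was 879 with the length and GC correction, 481 at a fold change over 2 and 1079 by the noise-distribution probability. In Naive-Mac vs. Naive, 0 of the 10 genes were called with quantile normalization or at a fold change over 2, and 1 by the noise-distribution probability, while the count of all genes, 5868, was 3561, 3659 and 3627 under the length and GC correction, the larger fold and the noise-distribution probability. In Resist-Mac vs. Naive-Mac, 1 gene was called with quantile normalization and 1 by the noise-distribution probability, and the 4509 genes became 2560, 2335 and 1455 under the same 3 settings. For the difference of the depletion effects, 1 gene was called with median-ratio scaling (Cd47), 1 with quantile normalization (Mif) and 2 with the length and GC correction (Cd47 and Csf1), against 0.

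Directions turned in the following cases, of which Cx3cl1 and Mif in Naive-Mac vs. Naive were called on the deposited scale. In Resist-Mac vs. Resist, Cxcl1 was -0.16 with quantile normalization and -0.22 with the length and GC correction, and Cd47 0.17 with the latter. In Naive-Mac vs. Naive, Cx3cl1 was 0.033 and Mif -0.39 with quantile normalization, and Mif -0.29 with the length and GC correction. In Resist-Mac vs. Naive-Mac, Il34 was -0.38 with median-ratio scaling, -0.42 with quantile normalization and -0.10 with the length and GC correction, and Mif 0.31 and 0.091 with the last 2. In the difference of depletion effects, Csf1 was 0.13 with a pseudocount of 0.1, Il34 -0.20 with both median-ratio scaling and quantile normalization, Cx3cl1 -0.33 and -0.27 with quantile normalization and the length and GC correction, and Mif -0.13 with median-ratio scaling. The cause of these changes was not tested.

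Leaving out each library gave 1 to 2 called genes in each of the 4 comparisons. It moved Cxcl1 between -0.029 and 0.38 and Cd47 between -0.12 and 0.11 in Resist-Mac vs. Resist, and Il34 between -0.10 and 0.13 in Resist-Mac vs. Naive-Mac. The mean FPKM difference ran from -0.001 to 0.167 for Cxcl12 and from -0.006 to 0.0265 for Cxcl16 in Resist vs. Naive, from -0.039 to 0.103 for Ccl2 and from -0.51 to 0.0025 for Ccl5 in Resist-Mac vs. Resist, and from -0.101 to 0.0275 for Ccl2 in Resist-Mac vs. Naive-Mac.

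Correlations between libraries with the same replicate number ran from -0.16 to -0.03 in Resist vs. Naive and from -0.27 to 0.36, -0.16 to 0.23 and -0.38 to 0.32 in the other comparisons. The labels state no pairing between groups. These values show no common pairing by number but cannot exclude one. With the replicate block, for which the labels give no basis, 2 genes were called in Resist-Mac vs. Resist. Csf1 was the second (limma adjusted p = 0.0191), and the block changed no other call. For Cxcl1 in Resist-Mac vs. Naive-Mac it lowered the SE from 0.41 to 0.13 and the limma adjusted p from 0.0405 to 9.6e-05. FPKM from 3 tables, low fragment numbers for Ccl2, Ccl5 and Cxcl16, and 1 batch per depleted group limit these results.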
